A study of Mus musculus with 6 samples.

Results

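The mouse mitochondrial chromosome (chrM of GRCm38) carries 37 genes, and all of them were found among the 54532 genes of the liver count table. Membership was set by position, as every gene that the GENCODE M21 annotation places on that chromosome, but this set was chosen with earlier results of these data known. The genes comprise 13 mRNA genes, 2 rRNA genes and 22 tRNA genes. The sequenced RNA came from the livers of 6 male C57BL/6J mice of WT genotype, and each mouse gave 1 library. By the study's text, all mice entered at 8 weeks of age and ate a high-fat diet (HFD) for 4 weeks, while the sample labels can be read as an age of 4 weeks when the diet began. In the HFD group (replicates 1 to 3) the diet then went on alone, and in the HFD+Allantoin-H group (replicates 4 to 6) it went on for another 4 weeks with allantoin, the end product of uric acid breakdown in mice, at 0.3 mg/mL in the drinking water. The dose was taken from the study's text, since the sample labels name both doses of the study without assigning either to a library. The comparison asks how the liver transcriptome of HFD-fed mice differed with allantoin, and since every mouse ate the HFD, no library shows these genes under another diet.

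Mitochondrial DNA is a small circle whose genes have no introns and almost no space between them. Each strand is transcribed as a long polycistronic RNA, and the tRNAs that lie between most of the other genes are cut out by dedicated nucleases, which frees the mRNAs and rRNAs at both ends. The mRNAs encode core subunits of respiratory chain complexes I, III and IV and of ATP synthase (complex V), the rRNAs build the mitochondrial ribosome, and the liver is a tissue rich in mitochondria. Genes on the plus strand of chrM are called here genes of the heavy-strand transcript (12 mRNAs, both rRNAs and 14 tRNAs), and those on the minus strand genes of the light-strand transcript (mt-Nd6 and 8 tRNAs).

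Of the 13 mRNAs, 10 ended in a complete stop codon in the annotation and 3 ended in a single T of the reading frame, so that the stop codon is only completed when a poly(A) tail is added. The last 24 bases of these 3 mRNAs are shown with the incomplete codon in capitals, and mt-Co1 is shown for contrast with its whole stop codon in capitals, all from the GENCODE M21 transcripts of GRCm38. The genes lie on the plus strand at chrM:8607-9390 (mt-Co3), chrM:10167-11544 (mt-Nd4), chrM:14145-15288 (mt-Cytb) and chrM:5328-6872 (mt-Co1).
mt-Co3: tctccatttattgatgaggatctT
mt-Nd4: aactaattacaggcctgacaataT
mt-Cytb: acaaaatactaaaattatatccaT
mt-Co1: ccaacctatgtaaaagtaaaaTAA
The library kit was an mRNA kit (SMARTER mRNA-Seq), so these tails bear on which RNAs could be captured.

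The tRNAs that held the most counts are shown next because the tRNA results turn on them, together with mt-Tt, the neighbour of mt-Tp, which had no counts at all. The minus-strand genes are those for proline (mt-Tp, chrM:15356-15422), glutamate (mt-Te, chrM:14071-14139), cysteine (mt-Tc, chrM:5192-5257) and tyrosine (mt-Ty, chrM:5260-5326), and the plus-strand genes are those for leucine (mt-Tl2, chrM:11671-11741) and threonine (mt-Tt, chrM:15289-15355). Each is given from 5′ to 3′ on its own strand, from the same transcripts, and no part is marked.
mt-Tp: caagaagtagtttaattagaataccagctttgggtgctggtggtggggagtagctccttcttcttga
mt-Te: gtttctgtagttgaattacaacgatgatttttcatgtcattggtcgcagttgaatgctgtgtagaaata
mt-Tc: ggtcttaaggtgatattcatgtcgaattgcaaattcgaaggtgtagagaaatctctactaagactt
mt-Ty: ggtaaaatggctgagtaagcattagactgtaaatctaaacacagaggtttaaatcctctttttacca
mt-Tl2: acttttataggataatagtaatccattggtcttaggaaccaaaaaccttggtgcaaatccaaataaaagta
mt-Tt: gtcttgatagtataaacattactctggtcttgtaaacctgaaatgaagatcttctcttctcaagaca

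The libraries held 11304059 to 14562848 counts over these genes. The deposited values were raw counts, and levels are given as CPM, counts scaled to a common library size with edgeR's TMM factors, which ran from 0.756 to 0.951 in HFD and from 1.12 to 1.19 in HFD+Allantoin-H. Markers of the hepatocyte, the main liver cell, summed to 95659 to 97961 CPM in HFD and 74013 to 102680 CPM in HFD+Allantoin-H (3 of 8 genes fell and 1 rose in edgeR, where 13% of all genes were called lower and 11.3% higher). The macrophage list summed to 135 to 307 CPM against 334 to 374 CPM (3 of 7 genes rose), the stellate cell list to 137 to 210 CPM against 352 to 402 CPM (6 of 7 rose) and the endothelial list to 61.4 to 111 CPM against 96.1 to 150.4 CPM (0 of 6 were called in edgeR). The cholangiocyte list summed to 34.3 to 159 CPM against 21.7 to 76.7 CPM (1 of 3 tested fell), the adipocyte list to 60.2 to 254 CPM against 35.7 to 82.2 CPM and the erythroid list to 332 to 1333 CPM against 876 to 1053 CPM. RNAs that stay in the nucleus (4 genes) summed to 454 to 882 CPM against 139 to 157 CPM, and Neat1 and Malat1 among them fell. No gene of any of these lists was at 0 in all libraries, and the part that these lists have in the results was not tested. In bulk liver, fewer cells of a type and less RNA per cell cannot be told apart. Neither the aligner nor the strand setting of the counting is given in the sources used here, so sense and antisense reads of a gene cannot be told apart.

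Mitochondrial RNA took up a smaller part of the library in every allantoin-treated liver, in each of the 3 classes of genes. The mRNAs held 35.5%, 19.5% and 17.1% of all gene counts in HFD replicates 1 to 3, and 7.24%, 6.68% and 11.1% in HFD+Allantoin-H replicates 4 to 6. The means were 24.04% ± 9.98 (SD, n = 3) and 8.34% ± 2.41 (SD, n = 3). HFD replicate 1 stood well above the other HFD libraries, but the lowest HFD share was still above the highest HFD+Allantoin-H share, and without replicate 1 the means differed by -9.97 percentage points in place of -15.7. The rRNAs held 0.862%, 0.566% and 0.753% in HFD and 0.249%, 0.214% and 0.218% in HFD+Allantoin-H, with means of 0.727% ± 0.1498 and 0.227% ± 0.0191 (SD, n = 3 each). The tRNAs held 0.139%, 0.0887% and 0.0655% in HFD and 0.0300%, 0.0271% and 0.0347% in HFD+Allantoin-H, with means of 0.0978% ± 0.0377 and 0.0306% ± 0.0038 (SD, n = 3 each). No class overlapped between the groups. For each class and for the sum of all 37 genes, the two-sided exact permutation test gave p = 0.10, the smallest value that 3 libraries against 3 can give, and p = 0.10 after Benjamini-Hochberg adjustment over these 4 comparisons.

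**Figure D1:**
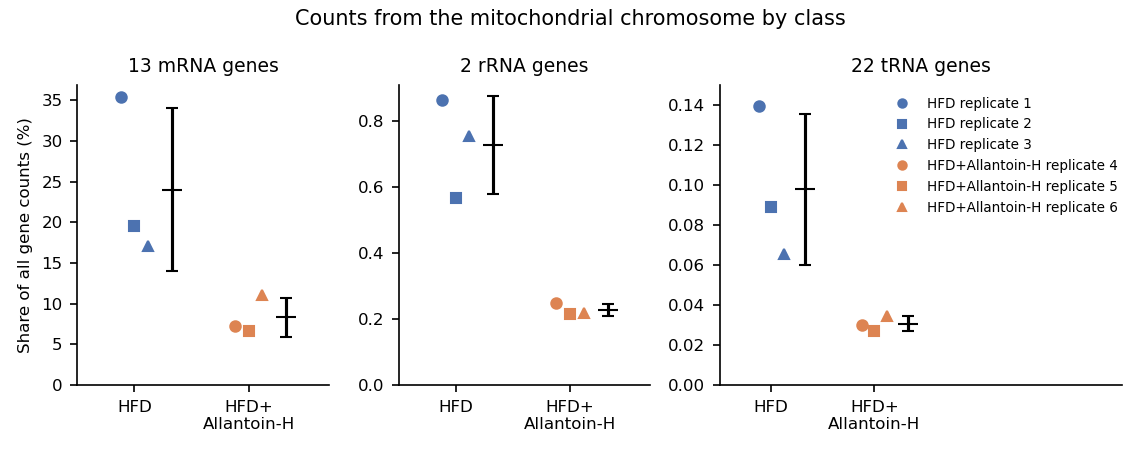
Share of all gene counts (%) held by the mRNA, rRNA and tRNA genes of the mitochondrial chromosome, with 1 point per library, a horizontal dash at the group mean and bars of 1 SD (n = 3). The groups do not overlap in any class, and HFD replicate 1 has the highest share in each.

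Gene by gene, all 13 mRNAs were called lower in HFD+Allantoin-H livers at an adjusted p under 0.05 in edgeR's quasi-likelihood test, and 13 of 13 had no overlap between the groups. Over all 12795 genes tested, 13% were called lower and 21.9% were lower without overlap. The log2 fold changes (HFD+Allantoin-H over HFD) ran from -3.19 to -1.68 with a median of -2.01, where the median over all genes tested was -0.03. The mRNAs are given here by the complex their protein joins.

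The complex I subunits encoded on chrM build much of the membrane arm of NADH dehydrogenase, which passes electrons from NADH to ubiquinone. mt-Nd1 was at 49204, 22316 and 18924 CPM in HFD and at 6619.7, 5449 and 9849.5 CPM in HFD+Allantoin-H (log2 fold change -2.04, standard error 0.41, adjusted p = 0.00938). mt-Nd2 was at 56478, 25596 and 20973 CPM in HFD and at 7444, 6912 and 11248 CPM in HFD+Allantoin-H (log2 fold change -2.01, standard error 0.40, adjusted p = 0.00978). mt-Nd4 was at 47331, 21268 and 19703 CPM in HFD and at 6071, 5842 and 10685 CPM in HFD+Allantoin-H (log2 fold change -1.97, standard error 0.41, adjusted p = 0.0107). These subunits shared a pattern in which HFD replicate 1 was far above the other HFD libraries, those lay close together, and HFD+Allantoin-H replicate 6 was the highest of the treated libraries. mt-Nd5, which sits at the far end of the membrane arm, was at 30062, 14461 and 13463 CPM in HFD and at 4368.5, 4613 and 7744 CPM in HFD+Allantoin-H (log2 fold change -1.79, adjusted p = 0.0112). mt-Nd6, the only mRNA of the light-strand transcript, was at 6963, 3419.7 and 3414 CPM in HFD and at 1207, 1096 and 2004 CPM in HFD+Allantoin-H (log2 fold change -1.68, standard error 0.35, adjusted p = 0.0111). It had the smallest change of the 13 mRNAs, although its groups still did not overlap.

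The remaining complex I subunits are short. mt-Nd3 was at 513, 663 and 528 CPM in HFD and at 39.4, 94.5 and 52.0 CPM in HFD+Allantoin-H. Its difference on the log2 scale, -3.19 (standard error 0.33, adjusted p = 0.00183), was the largest of the 13 and had the smallest error. The HFD libraries differed from each other by 1.29-fold at most, and the lowest of them was 5.42-fold above the highest treated library. mt-Nd4l was at 506, 154 and 132 CPM in HFD and at 10.996, 19.2 and 72.8 CPM in HFD+Allantoin-H (log2 fold change -2.94, standard error 0.75, adjusted p = 0.0231), and here the treated libraries themselves differed by 6.62-fold.

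mt-Cytb encodes cytochrome b, the only chrM-encoded subunit of complex III, which passes electrons on to cytochrome c. It was at 80641, 37113 and 34563 CPM in HFD and at 10966, 10620 and 17706 CPM in HFD+Allantoin-H (log2 fold change -1.95, standard error 0.39, adjusted p = 0.00966).

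Complex IV, cytochrome c oxidase, reduces oxygen to water with its catalytic centres in the chrM-encoded subunits. mt-Co1 was the most abundant mitochondrial mRNA, at 180420, 84162 and 61874 CPM in HFD and at 22777, 21943 and 36206 CPM in HFD+Allantoin-H (log2 fold change -2.01, standard error 0.43, adjusted p = 0.0125). mt-Co2 was at 5919.5, 2063 and 2140 CPM in HFD and at 339, 122.6 and 732 CPM in HFD+Allantoin-H (log2 fold change -3.08, standard error 0.66, adjusted p = 0.0118). mt-Co3 was at 4117, 3073 and 1766 CPM in HFD and at 661, 450.2 and 1480.4 CPM in HFD+Allantoin-H (log2 fold change -1.79, standard error 0.46, adjusted p = 0.0230). In mt-Co3 the groups came closest, since HFD replicate 3 was only 1.19-fold above HFD+Allantoin-H replicate 6.

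The chrM-encoded subunits of complex V belong to the membrane part of ATP synthase, through which protons pass. mt-Atp6 was at 8214, 3616 and 2874 CPM in HFD and at 277, 359 and 1840.5 CPM in HFD+Allantoin-H (log2 fold change -2.57, standard error 0.73, adjusted p = 0.0331). mt-Atp8 was at 39.0, 12.4 and 7.19 CPM in HFD and at 1.98, 1.597 and 2.97 CPM in HFD+Allantoin-H (log2 fold change -3.15, standard error 0.60, adjusted p = 0.00844). The treated libraries spread over 6.65-fold in mt-Atp6 and over 1.86-fold in mt-Atp8.

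The library with the highest level was the same for nearly all mRNAs. HFD replicate 1 was the highest HFD library in 12 of 13 mRNAs and HFD+Allantoin-H replicate 6 the highest treated library in 12 of 13, with mt-Nd3 as the exception in both (highest in replicates 2 and 5). The number of called mRNAs also depended on single libraries. Without HFD+Allantoin-H replicate 5, only mt-Co2, mt-Atp8 and mt-Nd3 stayed called in edgeR (3 of 13, adjusted p from 0.00399 to 0.115 over the 13). Without replicate 4, mt-Nd1, mt-Nd2, mt-Atp8, mt-Nd3 and mt-Cytb stayed called (5 of 13, adjusted p from 0.0103 to 0.0940). Without HFD replicate 1, mt-Atp6, mt-Co3 and mt-Nd4l lost their calls (10 of 13 left, adjusted p from 0.00405 to 0.1003). All 13 log2 fold changes were negative in every fit that left out 1 of the 6 libraries, and their median lay between -2.32 and -1.48 over these fits.

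Per kilobase of gene, the mRNAs covered a wide range. In HFD the mean levels were 70432 CPM per kb for mt-Co1, 44381 for mt-Cytb, 33092 for mt-Nd2, 31502 for mt-Nd1, 21360 for mt-Nd4, 10597 for mt-Nd5, 8861 for mt-Nd6, 7198 for mt-Atp6, 4933 for mt-Co2, 3808 for mt-Co3, 1632 for mt-Nd3, 889 for mt-Nd4l and 95.8 for mt-Atp8. In HFD+Allantoin-H the order was the same except that mt-Co3, at 1102 CPM per kb, came before mt-Co2, at 582 CPM per kb. Across mice the HFD ranges of neighbours in this order overlapped, except between mt-Co3 and mt-Nd3 and between mt-Nd4l and mt-Atp8. Within a library the order was steadier, as each of the first 7 genes was above the next in 6 of 6 libraries. Genes that are read as 1 joint mRNA in textbooks had unlike counts, at 95.8 CPM per kb for mt-Atp8 beside 7198 for mt-Atp6 and at 889 for mt-Nd4l beside 21360 for mt-Nd4 in HFD. Each of these pairs overlaps in the annotation (chrM:7927-7969 and chrM:10167-10173), and how reads in an overlap were counted is not given in the sources used here. The 6 mRNAs with the lowest levels per kb, from mt-Atp6 to mt-Atp8 in the HFD order, all lie in the stretch copied on chromosome 1, described below. mt-Nd4 lies partly in it, and the part that the copies have in these levels was not tested.

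**Figure D2:**
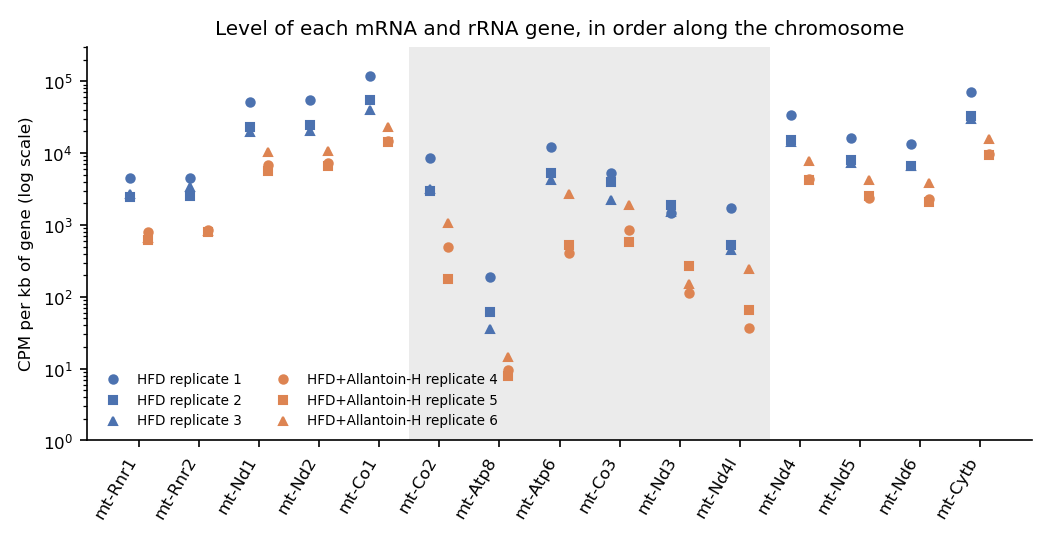
Level of the 13 mRNA and 2 rRNA genes in CPM per kb of gene (log axis), in order along the chromosome, with 1 point per library. Grey marks the 6 mRNA genes that lie by position in the stretch with copies on chromosome 1, where the treated libraries spread the most, by up to 6.65-fold in mt-Atp6.

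The mRNAs with the largest fold changes and the widest spread lay in a single stretch. At chr1:24611535-24616197 in nuclear DNA, 7 annotated genes lie on the minus strand whose transcripts match chrM:6390-11042 almost base for base, in the same order and at almost the same distances as on chrM. This stretch of chrM spans 6 mRNA genes by position (mt-Co2, mt-Atp8, mt-Atp6, mt-Co3, mt-Nd3 and mt-Nd4l) and parts of mt-Co1 and mt-Nd4. Of the 6, mt-Atp8 had no annotated copy of its own in the search and counts as inside because it lies between mt-Co2 and mt-Atp6, and the nuclear sequence between the annotated copies was not analysed here. The stretch leaves mt-Nd1, mt-Nd2, mt-Nd5, mt-Nd6 and mt-Cytb outside. The median log2 fold change was -3.01 over the 6 mRNAs inside, -1.99 over the 2 partly inside and -1.95 over the 5 outside. Inside, the single values ran from -3.19 (mt-Nd3) to -1.79 (mt-Co3), so not every gene of the stretch had a large change. The treated libraries differed by 1.63-fold to 1.83-fold in the mRNAs outside and by 1.86-fold to 6.65-fold in those inside.

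Where an annotated copy is identical, a read can match either place equally well. Over the aligned parts, the chromosome 1 genes Gm28661 (copy of mt-Co2, 681 bases), Gm10925 (mt-Atp6, 678 bases), Gm28437 (mt-Co3, 783 bases) and Gm28439 (mt-Nd4, 876 bases) had no mismatch to chrM. The same held for Gm10222 (mt-Nd4l, 294 bases). A single base set apart Gm29216 from mt-Co1 over 483 aligned bases, A1066T, near the start of the alignment. A single base, T3C, also set apart Gm28438 from mt-Nd3 over 345 bases. Positions are counted from 1 at the first base of the mitochondrial gene, whose base is given first, and the windows below show these bases in capitals, because they are the letters by which a read could be assigned.
mt-Co1: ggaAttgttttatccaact
Gm29216: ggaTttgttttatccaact
mt-Nd3: atTaacctgtacactgtt
Gm28438: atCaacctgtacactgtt
Gm28438 and Gm10222 were named after their values were seen, and the other copies for their counts.

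The nuclear copies held counts in every library, and these were lower with allantoin too. The 11 annotated copies of chrM mRNA genes (7 on chromosome 1 and 4 elsewhere, at 95% identity or more over at least 200 bases) held 0.803%, 0.327% and 0.279% of all counts in HFD and 0.0594%, 0.0599% and 0.206% in HFD+Allantoin-H. Of the 9 copies tested, 8 were called lower in edgeR (13% over all genes), among them Gm28437 (log2 fold change -2.86), Gm29216 (-3.66), Gm10925 (-2.41) and Gm28439 (-2.42). Gm28661 had a log2 fold change of -1.66 and was not called (adjusted p = 0.138). The copies took 35.5%, 27.6% and 28.3% of the counts that fell on the 6 mRNAs inside or on any copy in HFD and 27.3%, 33.0% and 30.7% in HFD+Allantoin-H, ranges that overlap. Single pairs differed from this sum. Of the joint counts of mt-Co2 and Gm28661, the copy took 20.7%, 22.3% and 16.6% in HFD and 25.1%, 40.7% and 45.6% in HFD+Allantoin-H. For mt-Nd4l and Gm10222 these shares were 18.3%, 20.5% and 17.1% against 47.4%, 34.5% and 20.7%. Neither pair overlapped between the groups, mt-Nd4l only just. In the other pairs with a chromosome 1 copy the groups overlapped. For mt-Nd3, HFD replicate 1 assigned 28.6% of the joint counts to the copy, against 3.91% and 5.30% in the other HFD libraries. With the copy's counts added, mt-Nd3 was at 718, 690.05 and 558 CPM in HFD and at 47.6, 112 and 61.5 CPM in HFD+Allantoin-H, and HFD replicate 1 was then the highest library, as in the other mRNAs. With all copies added, each of the 13 mRNAs was still called lower, with log2 fold changes of -2.66 for mt-Co2, -2.54 for mt-Atp6, -2.12 for mt-Co3, -3.15 for mt-Nd3 and -2.78 for mt-Nd4l. How the counting treated reads with several equal matches is not given in the sources used here. Any such reads that were left out are in neither count, so adding the copies cannot bring them back.

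Set against the mRNAs outside it, the summed counts of the stretch were lower in 2 of the 3 treated libraries. The 6 mRNAs inside held 4.10%, 4.40% and 4.13% of the mitochondrial mRNA counts in HFD and 2.19%, 1.82% and 4.20% in HFD+Allantoin-H. In replicate 6 the sum was thus at the level of the HFD libraries, but not every gene of the stretch was: as shares of all mitochondrial counts, mt-Co2 (0.718%), mt-Nd3 (0.0511%) and mt-Atp8 (0.00291%) were lower in replicate 6 than in any HFD library (lowest 0.916%, 0.106% and 0.0038%), while mt-Atp6 (1.81%) and mt-Co3 (1.45%) were higher than in any HFD library (highest 1.698% and 1.36%). With the copies' counts added, 2 of these differences were gone. The share of mt-Co2 in replicate 6 was then 1.30%, within the HFD range of 1.16% to 1.51%. That of mt-Co3 was 1.96%, below the highest HFD library (1.99%). mt-Nd3 was still lower and mt-Atp6 still higher than in any HFD library. The log2 ratio of counts inside to counts outside differed by -0.76 between the group means (two-sided exact permutation p = 0.20, adjusted p = 0.70 over 7 such measures), and by -0.72 with the copies added.

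**Figure D3:**
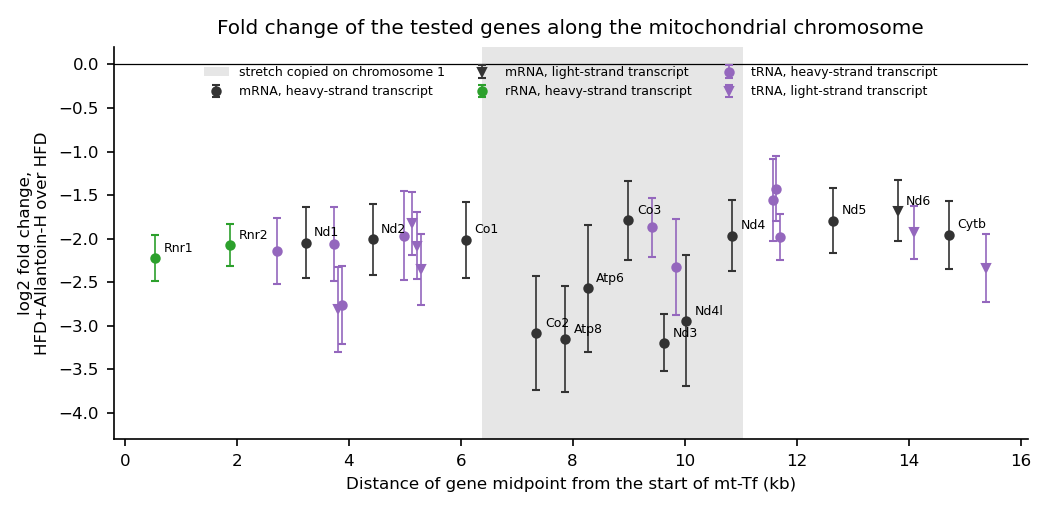
The log2 fold change (HFD+Allantoin-H over HFD) of the 30 tested genes against the distance of the gene's midpoint from the start of mt-Tf in kb, with bars of 1 standard error. All 30 lie below 0, and the lowest mRNA values, from mt-Co2 to mt-Nd4l, lie in the grey stretch copied on chromosome 1.

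The strand and the place in the transcript were then compared within each library, where no scaling between libraries enters. mt-Nd6 held 1.48%, 1.57% and 1.89% of the mitochondrial mRNA counts in HFD and 1.99%, 1.91% and 2.01% in HFD+Allantoin-H. Its share was thus higher in 3 of 3 treated libraries than in any HFD library, if only just above HFD replicate 3. Antisense reads from the heavy-strand transcript would count for mt-Nd6 too if strand was not used. The log2 ratio of mt-Nd6 to the 12 heavy-strand mRNAs averaged -5.91 ± 0.19 in HFD and -5.64 ± 0.04 in treated livers (SD, n = 3 each), a difference of 0.27 (two-sided exact permutation p = 0.10, the smallest possible, adjusted p = 0.70). Along the heavy-strand transcript, the fitted slope of the level per kb of the 12 mRNAs over distance from mt-Tf was slightly negative in every library. The levels did not fall steadily from gene to gene. In HFD, mt-Cytb, the last of them, had a mean of 44381 CPM per kb, and mt-Nd1, the first, 31502. Whether a slope differed from 0 was not tested. The slopes on the log2 scale were -0.087, -0.069 and -0.050 per kb in HFD and -0.087, -0.034 and -0.059 per kb in HFD+Allantoin-H. The slopes of the groups overlapped (two-sided exact permutation p = 0.70), so no difference in slope was detectable with these 6 libraries. These fits include the mRNAs of the stretch copied on chromosome 1, which had the lowest levels per kb, so position and copies are mixed in them. A fit to mt-Nd1, mt-Nd2, mt-Nd5 and mt-Cytb only was added after the data were seen. Its mean slopes differed by 0.0104 per kb (two-sided exact permutation p = 0.20).

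The groups overlapped in most other measures of the make-up of the mitochondrial counts. Complex I mRNAs held 41.2% ± 1.33 of the mRNA counts in HFD and 42.0% ± 0.342 in HFD+Allantoin-H, complex III 17.8% ± 1.20 and 18.1% ± 0.348, complex IV 39.3% ± 2.47 and 38.9% ± 0.327, and complex V 1.67% ± 0.0787 and 0.979% ± 0.760 (SD, n = 3 each). The groups overlapped in all 4 complexes. As shares of all mitochondrial counts, 3 of the 15 mRNA and rRNA genes did not overlap between groups, with mt-Co2 and mt-Atp8 lower and mt-Nd6 higher (two-sided exact permutation p = 0.10 each, adjusted p = 0.50). With the copies added, mt-Co2 overlapped. The other 2, mt-Atp8 and mt-Nd6, remained, but neither has an annotated copy, so only the total changed for them. For levels over all genes, 22.4% were higher without overlap, beside the 21.9% lower.

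**Figure D4:**
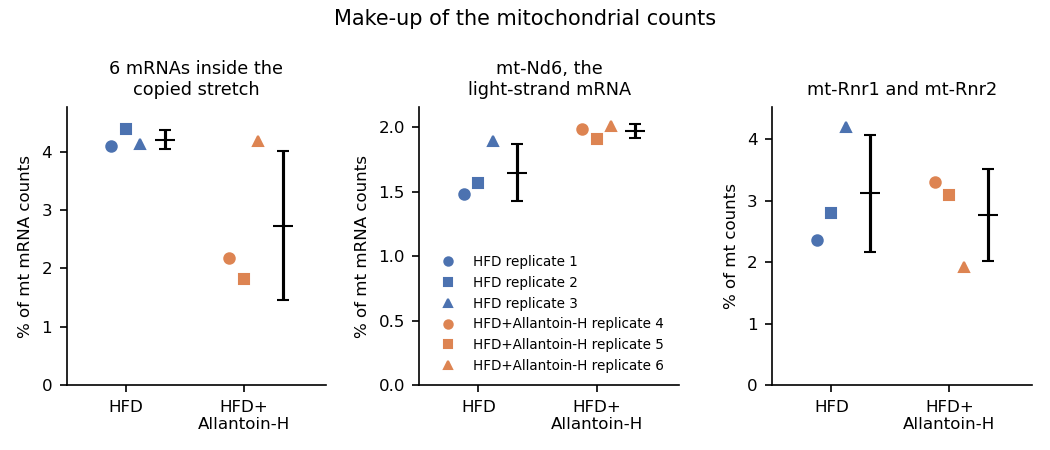
Shares within the mitochondrial counts (%), for the 6 mRNAs inside the copied stretch and mt-Nd6 (of mRNA counts) and for both rRNAs (of all mitochondrial counts), with 1 point per library, a dash at the group mean and bars of 1 SD (n = 3). Only mt-Nd6 has no overlap, and HFD+Allantoin-H replicate 6, at 4.20%, lies with the HFD libraries in the panel of the copied stretch.

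The rRNAs come first in the heavy-strand transcript and form the core of the small (mt-Rnr1) and large (mt-Rnr2) subunits of the mitochondrial ribosome. mt-Rnr1 (chrM:70-1024) was at 4330.3, 2354 and 2576 CPM in HFD and at 752, 595 and 638 CPM in HFD+Allantoin-H (log2 fold change -2.22, standard error 0.27, adjusted p = 0.00287). mt-Rnr2 (chrM:1094-2675) was at 7092, 3959.7 and 5355.5 CPM in HFD and at 1337, 1246.5 and 1319 CPM in HFD+Allantoin-H (log2 fold change -2.07, standard error 0.24, adjusted p = 0.00258). Among the treated libraries both were steadier than any mRNA, with differences of 1.26-fold and 1.07-fold at most, and the lowest HFD library was 3.13-fold and 2.96-fold above the highest treated one. Both kept their call whichever library was left out. Replicate 6, the highest treated library in most mRNAs, was not the highest in either rRNA. The rRNAs held 2.36%, 2.80% and 4.20% of the mitochondrial counts in HFD and 3.31%, 3.09% and 1.92% in HFD+Allantoin-H, and the difference in the log2 ratio of rRNA to mRNA, -0.17, was within the spread (two-sided exact permutation p = 0.70). The ratio of mt-Rnr2 to mt-Rnr1 counts was 1.64, 1.68 and 2.08 in HFD and 1.78, 2.09 and 2.07 in HFD+Allantoin-H, with no separation of the groups (p = 0.30 in the same exact test).

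The tRNAs carry amino acids to the mitochondrial ribosome, and a mature tRNA is very short and has no poly(A) tail. Their counts were few and very uneven, although all 22 genes have nearly the same length (59 to 75 bases). The 5 with the most counts, mt-Tp, mt-Te, mt-Tc, mt-Ty and mt-Tl2, held 89.9% of all tRNA counts, and mt-Tp alone held 41.0%. Of these 5, 4 belong to the light-strand transcript, whose 8 tRNAs held 90.2%, 90.3% and 86.5% of the tRNA counts in HFD and 88.2%, 89.5% and 88.0% in HFD+Allantoin-H. At these minus-strand genes, antisense reads from the heavy-strand transcript would count the same if strand was not used.

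mt-Tp had 7851, 3746 and 3257 counts in HFD and 1232, 1567 and 1680 counts in HFD+Allantoin-H, with a log2 fold change of -2.34 after scaling (standard error 0.39, adjusted p = 0.00534). mt-Te had 3984, 2642 and 2534 counts in HFD and 876, 1144 and 1577 counts in HFD+Allantoin-H (log2 fold change -1.93, adjusted p = 0.00478). mt-Tc had 1803, 1515 and 705 counts in HFD and 517, 465 and 448 counts in HFD+Allantoin-H (log2 fold change -2.08, adjusted p = 0.00756). In these 3 tRNAs, as in mt-Ty and mt-Tl2, no treated library reached the lowest HFD library. mt-Ty had 1174, 822 and 411 counts in HFD and 237, 264 and 217 counts in HFD+Allantoin-H (log2 fold change -2.35, adjusted p = 0.00578). mt-Tl2, of the heavy-strand transcript, had 508, 341 and 422 counts in HFD and 148, 130 and 192 counts in HFD+Allantoin-H (log2 fold change -1.98, standard error 0.27, adjusted p = 0.00348). Its standard error was the smallest of the 5.

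The filter on low counts kept 15 of the 22 tRNAs, and all 15 were called lower in edgeR (13% over all genes), with log2 fold changes from -2.81 to -1.43. A tRNA with few counts passes this filter more easily if it is high in 1 group, so this count is a description. With at least 10 counts required in every library, 13 were tested and all 13 were called lower. Over all genes, that fit called 1583 lower and 1456 higher. The ends of the range were mt-Tq (glutamine, -2.81) on the light strand and mt-Ts2 (serine, -1.43) on the heavy strand. The 6 tested light-strand tRNAs had a median of -2.21 and the 9 tested heavy-strand tRNAs a median of -1.98. The log2 ratio of light-strand to heavy-strand tRNA counts did not separate the groups (difference -0.08, two-sided exact permutation p = 0.80), nor did that of tRNA to mRNA counts (difference -0.13, p = 0.60 in the same exact test).

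The other 7 tRNAs were not tested, and their counts are given outside the rule for named genes so that every gene is accounted for. mt-Ta (alanine) had 30, 22 and 5 counts in HFD and 6, 5 and 10 in HFD+Allantoin-H. mt-Ts1 (serine) had 9, 9 and 7 counts in HFD and 3, 4 and 6 in HFD+Allantoin-H. mt-Tv (valine) had 4 counts in HFD replicate 1 and 0 elsewhere, and mt-Tf (phenylalanine), mt-Td (aspartate), mt-Tk (lysine) and mt-Tt (threonine) had 0 counts in all 6 libraries. A count of 0 allows a share of up to 2.06e-05% to 2.65e-05% of a library (3 counts, counting error only). This limit is on counts, not on RNA, since how reads that span adjoining genes were counted is not given in the sources used here. mt-Tt is thus at 0 directly beside mt-Tp, the tRNA with the most counts, whose sequences are shown above.

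**Figure D5:**
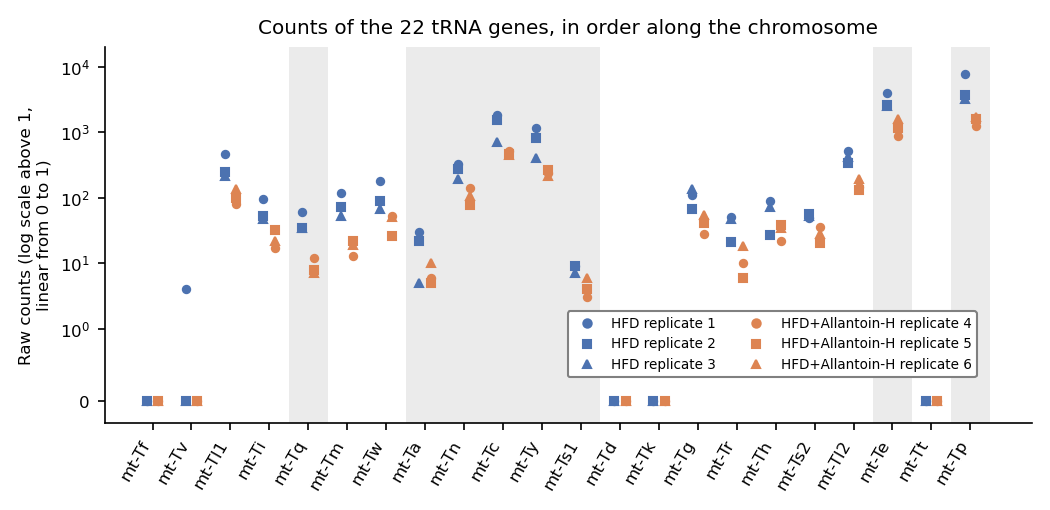
Raw counts of the 22 tRNA genes in order along the chromosome, with 1 point per library and 0 shown on the axis. Grey marks the 8 light-strand genes. Counts range from 0 in mt-Tf, mt-Td, mt-Tk and mt-Tt to 7851 in mt-Tp, and the HFD points lie above the treated points in all 15 tested genes once counts are scaled.

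Mitochondrial DNA is transcribed and its RNA processed by proteins that the nucleus encodes, and few of their genes were called in either direction. Of 41 listed genes, all tested, 3 were called lower and 3 higher in edgeR (13% and 11.3% over all genes), with a median log2 fold change of 0.05. Polrmt, the mitochondrial RNA polymerase, was at 30.9, 20.7 and 11.5 CPM in HFD and at 11.9, 14.2 and 12.8 CPM in HFD+Allantoin-H (log2 fold change -0.69, adjusted p = 0.141), and its groups overlapped. Tfam, which packages mitochondrial DNA and starts its transcription, rose from 29.4, 33.2 and 26.8 CPM to 43.9, 41.9 and 46.4 CPM (log2 fold change 0.57, standard error 0.16, adjusted p = 0.0296). Its partner in initiation, Tfb2m, was at a log2 fold change of 0.20 (adjusted p = 0.370) and the elongation factor Tefm at 0.28 (adjusted p = 0.396). Thus the direction of Tfam was opposite to that of the chrM genes. Of the mRNA-stabilising pair, Lrpprc was at 0.37 on the same scale (adjusted p = 0.145) and Slirp at -0.80 (adjusted p = 0.205). The lower genes were Fastk (-0.95, adjusted p = 0.00603), whose mitochondrial form is known for stabilising the mt-Nd6 mRNA, Mrm3 (-1.22, adjusted p = 0.00632), which methylates the large rRNA, and Ssbp1 (-0.96, adjusted p = 0.00785), which binds single-stranded mitochondrial DNA. The other higher genes were Elac2 (0.60, adjusted p = 0.0382), which cuts tRNA 3′ ends, and Fastkd2 (0.92, adjusted p = 0.0450), a protein of mitochondrial RNA granules that was named after its values were seen.

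The nuclear genes whose proteins assemble with the chrM-encoded subunits were called lower at a larger share than the 13% of all genes in 4 of 5 complexes, with smaller changes than the chrM genes. Members of these lists come from general knowledge of the complexes, and the difference in share was not tested. Of the nuclear complex I genes, 26 of 37 were called lower and 1 higher, with a median log2 fold change of -0.75. The counts were 5 of 9 lower and 0 higher in complex III (median -0.49), 8 of 11 lower and 0 higher in complex IV (median -0.80) and 7 of 17 lower and 1 higher in complex V (median -0.31). Complex II, which has no chrM-encoded subunit, had 0 of 4 lower and 2 higher (median 0.60). Of the mitochondrial ribosomal proteins, which join both rRNAs, 28 of 77 were called lower and 4 higher (median -0.38). For comparison, the medians of the chrM-encoded genes were -2.01 for the mRNAs and -2.15 for the rRNAs.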

How the data were processed

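The authors deposited raw counts per gene from filtered Illumina reads of 6 mouse liver libraries, prepared with the SMARTER mRNA-Seq kit. The submitters' processing notes name GRCm38 and mm10. Aligner, counting tool and strand setting are not given in the sources used here. Symbols, positions and sequences came from GENCODE M21 (GRCm38). The 429 features without an Ensembl identifier (0.197% to 0.306% of counts) were left out.

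Counts were tested with edgeR 4.0.16 (R 4.3.3): TMM, filterByExpr, quasi-likelihood test, group as the only term, Benjamini-Hochberg adjustment over 12795 genes at a threshold of 0.05. Standard errors were derived from the F statistic. The script was tested on simulated data. Shares and log2 ratios within a library (1 count added to both sums) were compared with two-sided exact permutation tests. Of the 7 within-chromosome measures, 4 were added after the data were seen. Copies were searched with BLAST 2.17.0 among annotated transcripts, at 95% identity over 200 bases, and a gene was taken as inside the copied stretch by position, if it lay wholly between the first and the last copied base of chrM. Named were all mRNA and rRNA genes, tested tRNAs or the 5 with the most counts, 6 nuclear regulators and the 4 others with the smallest p, and the 5 copies with the most counts. The members and lists were chosen with earlier results of these data known. No separate batch or date is given for the libraries, so either cannot be told apart from the group.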

Additional observations from a re-analysis of the deposited data

How the results depend on the processing

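The 30 tested mitochondrial genes kept their negative direction under every alternative that tested them. All 30 calls were kept with DESeq2 1.42.0, RLE, upper-quartile or nuclear-gene TMM factors, no filter and the copies' counts added, 28 with library size only, 29 with limma-voom (limma 3.58.1) and all 28 that were tested with at least 10 counts in every library. Fits without 1 library lost 0 to 14 of the 30 calls. They gave 3 to 13 called mRNAs, 460 to 1773 genes higher and 564 to 2008 lower over all genes. Library size only gave 3162 higher and 674 lower and moved the median log2 fold change of all genes from -0.03 to 0.38 (0.0020 with limma-voom). It also moved the median of the 13 mitochondrial mRNAs from -2.01 to -1.54, so the size of their change depends on the scaling. Counting only the mRNAs outside the copied stretch, an alternative added after the data were seen, gave 5 of 5. Within the chromosome, leaving out 1 library turned the sign of small differences: the slope (-0.0042 to 0.022), the log2 ratios of rRNA to mRNA (-0.36 to 0.079), tRNA to mRNA (-0.20 to 0.0049) and light-strand to heavy-strand tRNA (-0.26 to 0.014), and the shares of mt-Nd1 (-0.63 to 0.045 percentage points), mt-Nd2 (-0.061 to 0.32), mt-Co1 (-1.19 to 1.12), mt-Co3 (-0.15 to 0.20), mt-Nd4 (-0.17 to 0.35) and mt-Rnr2 (-0.46 to 0.22). The number of shares without overlap was 3 to 6. With copies added, the share of mt-Co3 differed by -0.22 in place of 0.035. The cause of these shifts was not tested. No paired analysis was possible because the groups share no replicate numbers. With 3 mice a group, an exact test of a single value cannot go below p = 0.10.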
